A study of Mus musculus with 10 samples.

Results

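Snx14 and its paralogs Snx13, Snx19 and Snx25 are the RGS-PX sorting nexins of the mouse, 4 of the 55536 genes in the count tables. They were chosen by name, as the family of the gene that the mice lack, and their identifiers were matched to gene symbols through the GENCODE M21 annotation. The 10 libraries are bulk RNA-seq of cerebellum and cerebral cortex from 5 mice, each of which gave both tissues at 1 year of age on a C57BL/6J background. The mice were 2 Snx14-KO mice with a frameshift in both copies of Snx14 in every tissue, 2 Het mice with 1 intact copy and 1 WT mouse with 2. The Het and WT mice are the controls of the study and were pooled as such, except where the number of intact copies was tested. The KO mice descend from CRISPR-injected zygotes, and part of the KO embryos die before birth, so the KO samples come from survivors only.

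RGS-PX sorting nexins are named for an RGS domain, a fold first described in regulators of G protein signaling, which not every member carries. The name also holds the PX domain, which in other sorting nexins binds phosphoinositide lipids. These domains are flanked by PXA and nexin C regions. The members with an N-terminal transmembrane stretch sit in the membrane of the endoplasmic reticulum and reach over to lysosomes or lipid droplets. SNX14 is known for its place at contacts between the endoplasmic reticulum and lipid droplets, SNX13 for lysosomal cholesterol export, SNX19 for holding endolysosomes near the endoplasmic reticulum, and SNX25 for turnover of TGF-β receptors. Loss of SNX14 in people causes a childhood ataxia with loss of cerebellar neurons.

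The allele is shown first because every comparison rests on it. Snx14 (ENSMUSG00000032422.17) spans chr9:88376750-88438958 on the minus strand in GRCm38, and 1 base is deleted in exon 14 of the 28 exons of transcript Snx14-204, at position 88402182 of chromosome 9. The sequence below is the reference transcript (GENCODE M21, GRCm38) from the first base of exon 14 to the end of the first stop codon in the shifted frame, 5′ to 3′ on the minus strand, with the deleted G and that TAA in capitals. The deleted G is the last of a run of 2, so either G gives the same allele.
Snx14-204, exon 14 into exon 15: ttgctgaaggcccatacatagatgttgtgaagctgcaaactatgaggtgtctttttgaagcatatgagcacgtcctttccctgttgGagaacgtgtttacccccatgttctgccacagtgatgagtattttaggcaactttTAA
Exon 14 spans chr9:88402144-88402268, 125 bases of coding sequence, and the deletion falls at base 87 of it, in codon 478 of 964. The shifted frame runs through 18 altered codons to the TAA in exon 15, which is followed by 13 exon junctions, the last of them 1367 bases further on. A stop codon this far ahead of the last junction is the textbook setting for nonsense-mediated decay of a transcript. The tables count whole genes, so they do not show the deletion itself, and transcript that carries it is counted as Snx14.

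Snx14 transcript was lowest in the KO mice, intermediate in the Het mice and highest in the WT mouse in both tissues. Levels are given as counts-per-million (CPM) values, scaled by TMM factors within a tissue. In cerebellum, Snx14 was at 76.1 CPM in the WT mouse, 44.3 and 41.5 CPM in Het 1 and Het 2, and 15.9 and 18.0 CPM in KO 1 and KO 2. In cortex, it was at 48.8 CPM in the WT mouse, 33.1 and 33.8 CPM in the Het mice, and 14.5 and 15.5 CPM in the KO mice. The 3 genotypes did not overlap in either tissue, and the 2 mice of a genotype lay close together. KO values below every control, which is part of this order, were met by 15.5% of all genes tested in cerebellum and 12.6% in cortex. Counts assigned to Snx14 remained in every KO library, on average at 22.3% of the WT level in cerebellum and 30.8% in cortex. Part of them may come from Gm20537, described below, because read pairs over exons shared by both genes are counted for each.

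**Figure D1:**
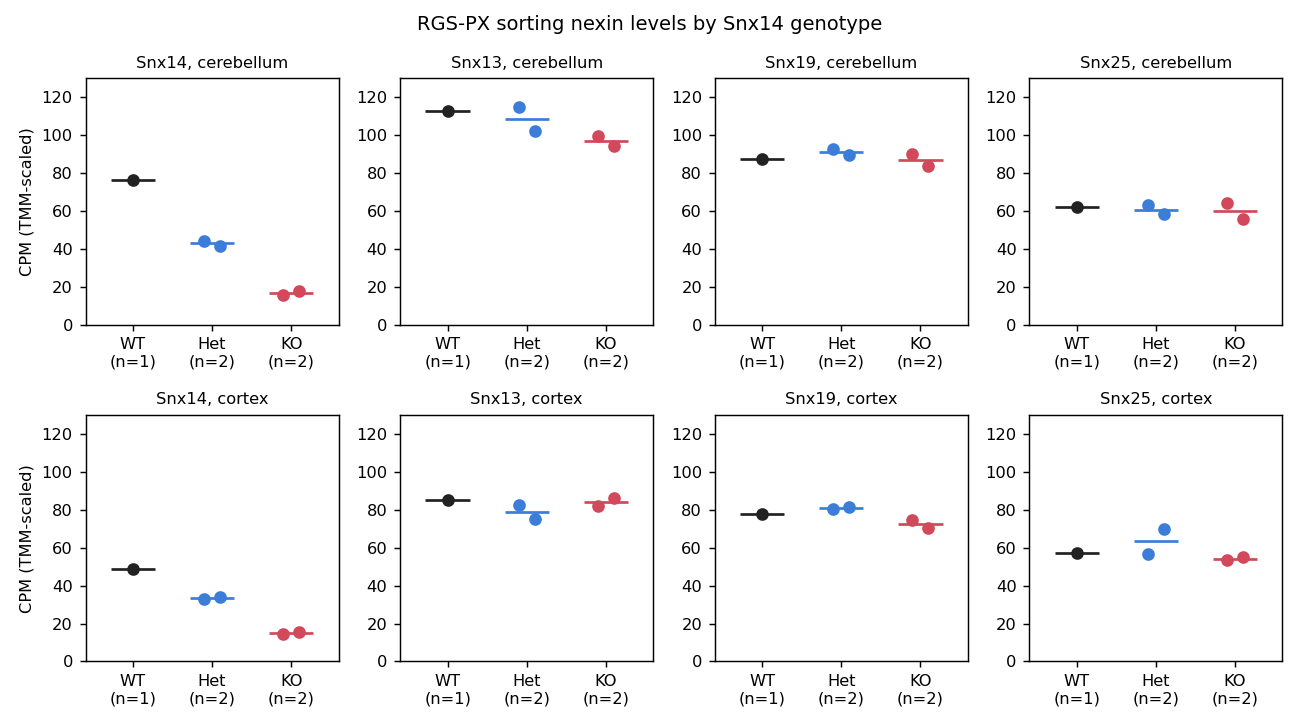
TMM-scaled CPM of Snx14, Snx13, Snx19 and Snx25 (columns) in cerebellum and cortex (rows) by Snx14 genotype, with 1 point per library and a line at the mean of each genotype. Snx14 steps down from WT through Het to KO, from 76.1 to 15.9 CPM in cerebellum and from 48.8 to 14.5 CPM in cortex, while the paralogs lie between 53.4 and 115 CPM in all libraries.

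The log2 fold change of Snx14 in KO cerebellum over the 3 controls was -1.66 (SE 0.26, 95% confidence interval -2.25 to -1.08), with an adjusted p of 0.0140 by the quasi-likelihood test of edgeR. Calls required both an adjusted p under 0.05 and a log2 fold change beyond 0.5 in either direction, which 1.55% of the 19447 genes tested in cerebellum met, and Snx14 was among them. With only KO 2 or only KO 1 kept, the adjusted p rose to 0.0989 and 0.0638, and the log2 fold changes were -1.57 and -1.76. In KO cortex the log2 fold change was -1.36 (SE 0.19, 95% confidence interval -1.81 to -0.91), and Snx14 had the third smallest p of 19202 genes, but its edgeR adjusted p was 0.754. No gene was called in cortex by edgeR (0%), although 1139 had an unadjusted p under 0.05, and DESeq2 called 49. Snx14 was called in cortex by DESeq2 (adjusted p 2.11e-06) and by edgeR without Het 2 (log2 fold change -1.45, adjusted p 0.00207). The KO effect on Snx14 differed by -0.28 between cerebellum and cortex (95% confidence interval -1.09 to 0.53, adjusted p 0.934), which is within the error of the test of that difference.

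The same libraries were then ordered by intact Snx14 copies, 2 in WT, 1 in Het and 0 in KO. Snx14 rose by 1.11 on the log2 scale per intact copy in cerebellum (SE 0.08, 95% confidence interval 0.92 to 1.30, edgeR adjusted p 0.0250). It was the 1 gene called of the 19447 tested for copy number in cerebellum at an adjusted p under 0.05 (0.00514%), while DESeq2 called 234. In cortex the slope was 0.89 per copy (SE 0.10, 95% confidence interval 0.65 to 1.13), and no other gene had a smaller p, but the edgeR adjusted p was 0.779 and no gene was called (0%), with 510 at an unadjusted p under 0.05. DESeq2 called 2 genes for the cortical slope, Snx14 among them (adjusted p 3.51e-08), and edgeR called Snx14 without Het 2 (adjusted p 0.00116). Without Het 2 or without KO 1, the cerebellar slope stayed at 1.10 and 1.03 but its adjusted p was 0.123 and 0.255. On the linear scale the Het mice sat near the midpoint of the WT and KO levels. This midpoint was 46.6 CPM in cerebellum, against a Het mean of 42.9 ± 1.98 CPM (SD, n = 2), and 31.9 CPM in cortex, against 33.4 ± 0.498 CPM (SD, n = 2). The WT value rests on 1 mouse, so the midpoint has no replicate error.

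Markers of other cells moved with the KO status. The 12 Purkinje cell markers summed to 10513 to 12089 CPM in the control cerebella and to 5477 to 5664 CPM in the KO cerebella, and 11 of the 12 were called lower. In bulk tissue, fewer cells of a type and less RNA per cell cannot be told apart. The 8 striatal projection neuron markers summed to 3602 CPM in Het 2 cortex, 1472 and 1644 CPM in the other control cortices, and 525 and 946 CPM in KO cortex, and Het 2 was also the control farthest from the others in cortical excitatory and oligodendrocyte markers. The 7 astrocyte markers summed to 3656 to 3776 CPM in control and 4176 to 4283 CPM in KO cerebella, and 3 were called higher. The other 7 lists in cerebellum and all 9 in cortex had no gene called by edgeR, with 11 of 43 and 15 of 59 tested markers at an unadjusted p under 0.05, against 13.4% and 5.93% of all genes tested, and DESeq2 called 3 and 0 of them. No marker of any list was at 0 in all libraries of a tissue. Choroid plexus markers summed to 64.4 CPM in KO 1 cerebellum and to between 1249 and 3533 CPM in the other cerebella. By Xist and the Y-linked Ddx3y, Het 2 and KO 2 were the males, so each class held both sexes. The part of these cell types in the values of Snx14 and its paralogs was not tested.

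Gm20537 (ENSMUSG00000092541.7) shares exons with Snx14 on the same strand, and its counts followed those of Snx14 at a smaller scale. It spans chr9:88407432-88456616 and joins exons of Syncrip, which encodes an RNA-binding protein, to exons 2 to 8 of Snx14-204, all of them ahead of the deletion. The 2 genes have 545 exonic bases in common, 8.92% of those of Snx14 and most of the 1009 of Gm20537, and a read pair over a shared exon was counted for both. Gm20537 was at 32.9 CPM in WT, 23.6 and 23.8 CPM in Het, and 16.8 and 18.7 CPM in KO cerebellum. Its cortical level was 24.7 CPM in WT, 21.6 and 19.4 CPM in Het, and 14.8 and 16.8 CPM in KO. The genotypes again did not overlap, where KO values below every control alone were met by 15.5% and 12.6% of all genes tested in cerebellum and cortex. Its KO log2 fold change was -0.59 in cerebellum (edgeR adjusted p 0.134, DESeq2 adjusted p 0.0229) and -0.47 in cortex (edgeR adjusted p 0.768). Its slope per intact copy was 0.44 in cerebellum, the fifth smallest p, with an adjusted p of 0.349 by edgeR and 0.000426 by DESeq2. In every KO library the CPM of Gm20537 was slightly above that of Snx14. How many pairs the 2 genes share is not in the tables, so neither the remaining Snx14 level in KO tissue nor that of Gm20537 can be split into its parts.

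The nearest tested genes on either side of Snx14 were not called. Nt5e, which encodes an ecto-nucleotidase that makes adenosine and ends 4658 bases beyond the 3′ end of Snx14, had a KO log2 fold change of -0.29 in cerebellum (adjusted p 0.704) and -0.69 in cortex (adjusted p 0.796). Gm28229, 2542 bases beyond the 5′ end, was at 0.808 to 2.41 CPM and had log2 fold changes of -0.21 and -0.08 (adjusted p 0.867 and 0.981, edgeR).

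The paralogs were then examined for a rise, at the level of bulk tissue, that would offset the missing Snx14 transcript. A rise confined to Purkinje cells or another single cell type may not show in bulk tissue and was not tested. No paralog was called in either tissue, by edgeR or by DESeq2, and 5 of the 6 changes were below 0. The median over all genes tested was near 0 (0.0009 in cerebellum, 0.0012 in cortex). The 6 changes come from the same 5 mice, so they are not independent. By edgeR, 1.55% of all genes tested were called in cerebellum and 0% in cortex. The cortical edgeR test thus called neither a paralog nor Snx14, and a missing call there says little about a paralog. Snx13 in cerebellum had the smallest unadjusted p of the 6, 0.0316, and was the only paralog under 0.05, in the direction of a lower KO level. The transcripts are distinct enough to be counted apart. The principal transcripts of any 2 members share no exact run longer than 15 bases, and their translated coding sequences are 24.2% to 30.6% identical over the aligned residues. None of the exonic bases of Snx13 or Snx19 lies in another gene, and 2.97% of those of Snx25 lie in Cfap97 on the opposite strand, whose log2 fold changes were -0.07 in cerebellum and -0.15 in cortex.

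Snx13 (ENSMUSG00000020590.16, chr12:35047186-35147479, plus strand) differed in position between the tissues. In cerebellum it was at 113 CPM in WT, 115 and 102 CPM in Het, and 99.8 and 94.2 CPM in KO. The cortical values were 85.2 CPM in WT, 82.6 and 75.0 CPM in Het, and 82.1 and 86.4 CPM in KO. Both KO cerebella lay below all controls, whereas the KO and control cortices overlapped. Such a KO position below every control was met by 15.5% of all genes tested in cerebellum and 12.6% in cortex. The log2 fold change was -0.18 in cerebellum (SE 0.07, 95% confidence interval -0.34 to -0.02, edgeR adjusted p 0.308), and it reached -0.14 and -0.23 when single libraries were left out. In cortex it was 0.058 (95% confidence interval -0.16 to 0.27, adjusted p 0.945). As percent changes, these intervals run from -21.2% to -1.40% in KO cerebellum and from -10.2% to 20.7% in KO cortex.

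Snx19 (ENSMUSG00000031993.7, chr9:30427108-30466733, plus strand) stayed between 83.9 and 92.9 CPM over all cerebella. It was at 87.5 CPM in WT, 92.9 and 89.6 CPM in Het, and 90.0 and 83.9 CPM in KO cerebellum. In the cortex libraries, Snx19 was at 78.0 CPM in WT, 80.4 and 81.5 CPM in Het, and 74.6 and 70.6 CPM in KO. KO and control values overlapped in cerebellum, and both KO cortices were below the controls, as were those of 12.6% of all genes tested in cortex. The log2 fold changes were -0.050 in cerebellum (SE 0.06, 95% confidence interval -0.20 to 0.10, edgeR adjusted p 0.827) and -0.14 in cortex (SE 0.08, -0.33 to 0.05, adjusted p 0.886). An increase of more than 6.90% in cerebellum or 3.68% in cortex lies outside these intervals.

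Snx25 (ENSMUSG00000038291.16, chr8:46033261-46152159, minus strand) had its widest spread among the control cortices. It was at 62.4 CPM in WT, 63.0 and 58.4 CPM in Het, and 64.3 and 55.8 CPM in KO cerebellum. In cortex it was at 57.2 CPM in WT, 56.8 and 69.9 CPM in Het, and 53.4 and 55.3 CPM in KO. The KO cerebella bracketed the controls. In cortex the KO values were lowest, as for 12.6% of all genes tested there, with Het 2 well above the other controls. The log2 fold changes were -0.031 in cerebellum (SE 0.08, 95% confidence interval -0.22 to 0.15, edgeR adjusted p 0.929) and -0.18 in cortex (SE 0.11, -0.44 to 0.09, adjusted p 0.886). Without KO 2 the cerebellar value was 0.068, and without Het 2 or other single libraries the cortical value ranged from -0.23 to -0.07. Here an increase of more than 11.3% in cerebellum or 6.52% in cortex lies outside the intervals.

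**Figure D2:**
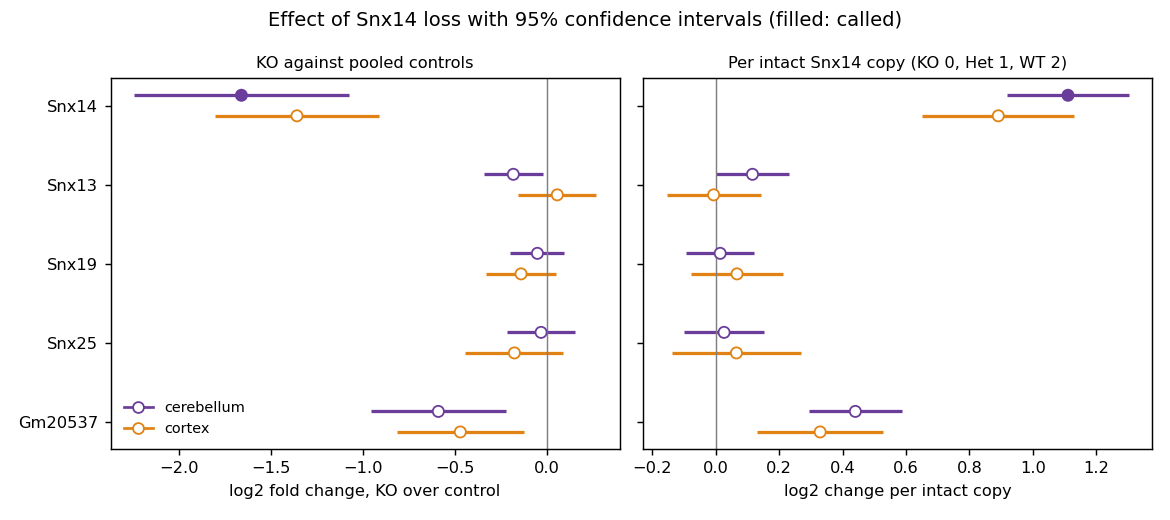
Log2 fold change in KO against pooled controls (left) and log2 change per intact Snx14 copy (right) for the 4 members and the exon-sharing Gm20537, in cerebellum and cortex, with points for the edgeR estimates, lines for 95% confidence intervals, and filled points for called genes. Snx14 stands at -1.66 and -1.36 on the left and at 1.11 and 0.89 on the right, the paralogs lie between -0.18 and 0.12, and Gm20537 lies between the paralogs and Snx14.

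No paralog was called in the test over intact copies. By edgeR that test called 0.00514% of the genes tested in cerebellum and 0% in cortex, so a missing call says little about a paralog. The slopes in cerebellum were 0.12 per copy for Snx13 (95% confidence interval 0.00058 to 0.23, unadjusted p 0.0491, edgeR adjusted p 0.555), 0.014 for Snx19 and 0.027 for Snx25. In cortex they were -0.0064 for Snx13, 0.067 for Snx19 and 0.065 for Snx25, with edgeR adjusted p-values of 0.999 for each. A rise with loss of Snx14 would give a slope below 0, and the lowest bound of the 6 intervals was -0.15 per copy. The KO effect on a paralog differed between cerebellum and cortex by -0.22 for Snx13 (95% confidence interval -0.48 to 0.04), 0.11 for Snx19 (-0.10 to 0.32) and 0.17 for Snx25 (-0.15 to 0.49), with adjusted p-values of 0.684, 0.858 and 0.863. None was among the 21 genes called for that difference (0.102% of 20614), nor was Snx14, and with the animal as a block in a paired fit, which gave 128 calls, no member was called.

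Levels of the 4 genes were compared with each other only per length, as TPM, a length-scaled unit that sums to the same total in every library, from the counts and the merged exon length in the tables. In the WT cerebellum the members lay close together, at 45.1 TPM for Snx13, 44.2 TPM for Snx25, 41.0 TPM for Snx19 and 39.3 TPM for Snx14. Over the 3 control cerebella the order was Snx13 at 43.9 ± 4.04 TPM, Snx25 at 43.3 ± 3.10 TPM, Snx19 at 42.0 ± 2.30 TPM and Snx14 at 27.7 ± 10.1 TPM (SD, n = 3). The first 3 neighbors in this order differed by less than their SD, and the wide SD of Snx14 holds the step from WT to Het. In control cortex the order was Snx25 at 39.8 ± 2.21 TPM, Snx19 at 34.4 ± 1.64 TPM, Snx13 at 29.9 ± 3.83 TPM and Snx14 at 18.4 ± 5.13 TPM (SD, n = 3), and each step of this order was wider than the larger SD of its neighbors. Snx14 moved from percentile 91.0 of all genes of the tables in WT cerebellum to percentiles 77.5 and 78.2 in KO, while the paralogs stayed between percentiles 90.8 and 92.2 in all cerebella. The order depended on the length used. With the length of the principal transcript, 3109 bases for Snx14 against 6107 merged bases, Snx14 in control cerebellum was at 17.2 CPM per kilobase, Snx13 at 17.5, Snx19 at 15.5 and Snx25 at 19.8. In control cortex it gave 19.9 for Snx25, 13.8 for Snx19, 12.9 for Snx13 and 12.3 ± 2.83 (SD, n = 3) for Snx14, so Snx13 and Snx14 then differed by less than the SD.

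The summed level of the family was lower in KO tissue only when Snx14 itself was counted in the sum. The 3 paralogs together reached 130.3 TPM in WT, 138 and 120 TPM in Het, and 128 and 118 TPM in KO cerebellum, and 107 TPM in WT, 105 and 100.3 TPM in Het, and 103 and 101 TPM in KO cortex. The KO cortices were inside the control range, and of the KO cerebella KO 1 was inside it and KO 2 just below it. With Snx14 added, the family sum was 170 TPM in WT, 161 and 140.1 TPM in Het, and 136 and 128 TPM in KO cerebellum. In cortex it was 132 TPM in WT, 121 and 115 TPM in Het, and 110.3 and 109 TPM in KO. Both KO sums with Snx14 were below all controls in each tissue. As these sums include the gene that the mice lack, their fall says nothing about the paralogs. Snx14 made up 23.2% of the sum in WT, 14.5% and 14.7% in Het, and 6.05% and 7.39% in KO cerebellum. Its share in cortex was 18.4% in WT, 13.3% and 12.9% in Het, and 6.61% and 6.98% in KO. These sums and shares rest on the merged exon length, 6107 bases for Snx14 against 3109 for its principal transcript, and depend on that choice.

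**Figure D3:**
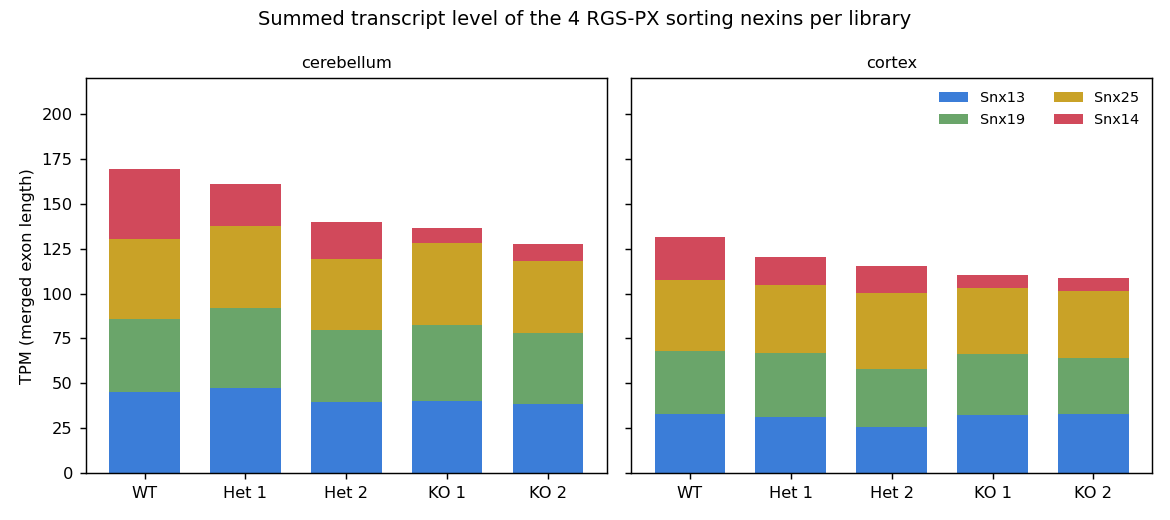
TPM per library of Snx13, Snx19, Snx25 and Snx14, stacked, for cerebellum (left) and cortex (right), from the counts and the merged exon length. The paralog part stays between 118 and 138 TPM in cerebellum and between 100.3 and 107 TPM in cortex, and the Snx14 part on top shrinks from 39.3 to 8.26 TPM and from 24.3 to 7.29 TPM.

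The transcript level of each member was compared between cerebellum and cortex of the control mice. As 2 of these are Het and 1 is WT, the Snx14 values mix mice with 1 and 2 intact copies. Snx13 was higher in cerebellum by 0.33 on the log2 scale (SE 0.08, 95% confidence interval 0.14 to 0.52, edgeR adjusted p 0.00979), which is under the fold threshold. Snx14 differed by 0.37 (95% confidence interval -0.19 to 0.93, adjusted p 0.233), Snx19 by 0.06 (adjusted p 0.490) and Snx25 by -0.11 (adjusted p 0.351). In the paired fit with the animal as a block, the Snx14 difference was 0.34 with an adjusted p of 0.00621. Without the paired block, leaving out single libraries moved it from 0.37 to between 0.049 and 0.56, the lowest without the WT cerebellum (adjusted p 0.847). No member was called, while 40.5% of 19416 genes were.

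Genes related to the family by domain or by pathway were read from 4 lists. Of 26 other PX-domain sorting nexins, 25 were tested, and none was called in KO cerebellum or cortex, none had an unadjusted p under 0.05, and DESeq2 called none. Their median log2 fold change was -0.00066 in cerebellum and -0.057 in cortex, against 0.0009 and 0.0012 over all genes tested. The smallest p in cerebellum belonged to Snx33, which takes part in endocytosis (0.34, adjusted p 0.384), and Snx4, an endosomal recycling factor (-0.20, adjusted p 0.400). In cortex it belonged to Snx10 (-0.18, adjusted p 0.861) and Snx15 (-0.23, adjusted p 0.885), both endosomal proteins. Between tissues, 4 of the 25 were called higher and 3 lower in control cerebellum than in control cortex, a smaller share than the 40.5% of all genes tested. Snx7 was at 2.90 to 3.37 CPM in control cerebellum and 12.8 to 17.8 CPM in control cortex (log2 difference -2.50, adjusted p 5.25e-06), and Snx10 had a log2 difference of -0.99 (adjusted p 4.77e-06). Snx30 was higher in cerebellum by 0.69 on the log2 scale (adjusted p 0.000232).

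The other RGS-domain genes hold the RGS domain for which the family is named. Of 33, 28 were tested, and 1 was called in KO cerebellum, lower. This was Rgs8, a regulator of G protein signaling of Purkinje cells and also 1 of the 12 Purkinje markers. Rgs8 was at 1340 CPM in WT, 1405 and 1277 CPM in Het, and 580 and 564 CPM in KO cerebellum. It showed no step between WT and Het, unlike Snx14, and its log2 fold change was -1.23 (SE 0.09, edgeR adjusted p 0.000505). Its KO effect differed between cerebellum and cortex by -0.76 on the log2 scale (adjusted p 0.0432), and with each of the 10 libraries left out in turn the adjusted p ran from 0.00771 to 0.250 and stayed under 0.05 for 2 of them, the Het 2 libraries. In cortex none of the list was called by edgeR, 7 had an unadjusted p under 0.05 (5.93% of all genes did), and DESeq2 called none. The smallest p belonged to Rgs8 (-0.45, edgeR adjusted p 0.754) and Rgs14 (-0.47, edgeR adjusted p 0.754). The largest cortical change of the list was that of Rgs9 (-2.01, not called), which is also 1 of the 8 striatal projection neuron markers. The list median was 0.12 in cerebellum and 0.11 in cortex.

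The lipid droplet and sterol handling partners are enzymes, coat and assembly proteins of lipid droplets and of fatty acid and sterol storage, together with the lysosomal cholesterol and lipid proteins Npc1, Npc2 and Lipa. Of 17, 15 were tested in cerebellum and 16 in cortex, and none passed both thresholds in either tissue with edgeR, although 5 and 3 had an unadjusted p under 0.05 (13.4% and 5.93% of all genes did) and DESeq2 called 1 and 0. In cerebellum, 13 of 15 had a log2 fold change above 0, with a median of 0.19 against 0.0009 over all genes. Acsl3, which activates fatty acids on growing lipid droplets, was at 193 CPM in WT, 175 and 174 CPM in Het, and 256 and 238 CPM in KO cerebellum. The log2 fold change of Acsl3 was 0.45, which is under the fold threshold (SE 0.07, edgeR adjusted p 0.0166). Scd3, a stearoyl-CoA desaturase, was at 32.7 CPM in WT, 32.5 and 30.4 CPM in Het, and 24.1 and 21.4 CPM in KO cerebellum, a log2 fold change of -0.49 (SE 0.10, edgeR adjusted p 0.0448). In cortex the median was 0.083, and the smallest p belonged to Dgat2, a triglyceride synthesis enzyme (-0.51, adjusted p 0.773), and Acsl3 (0.26, adjusted p 0.796).

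All 10 nonsense-mediated decay factors were tested, since the shifted reading frame of the KO transcript meets a stop codon in exon 15 of 28. None was called in either tissue, none had an unadjusted p under 0.05, and DESeq2 called none. The log2 fold changes ran from -0.11 to 0.13 in cerebellum and from -0.24 to 0.19 in cortex, with medians of -0.00095 and -0.0041. Upf1, the helicase of the pathway, was at 0.13 (adjusted p 0.550) and Smg5, which recruits decay enzymes, at -0.10 (adjusted p 0.550) in cerebellum. In cortex Smg8 was at -0.24 and Smg1, the kinase that acts on UPF1, at 0.19 (both adjusted p 0.886). In the slope over intact copies, no gene of the 4 lists was called by edgeR in either tissue, with 1, 4, 4 and 0 members of the lists in the order above at an unadjusted p under 0.05 in cerebellum and 0, 4, 1 and 0 in cortex, against 8.95% and 2.66% of all genes tested. DESeq2 called 1, Rgs8 in cerebellum.

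**Figure D4:**
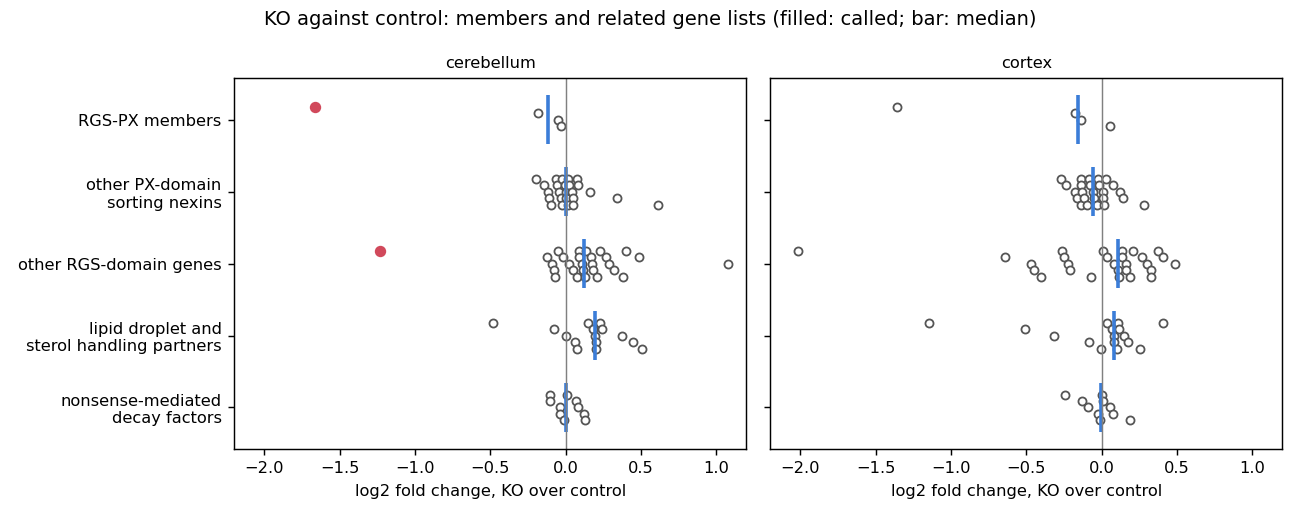
Log2 fold change in KO against control for the 4 RGS-PX members and the tested genes of the 4 related lists, in cerebellum (left) and cortex (right), with 1 point per gene, filled points for called genes and a bar at the median of each list. Snx14 at -1.66 and Rgs8 at -1.23, both in cerebellum, are the filled points.

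The genes whose pattern over the 10 libraries was most like that of Snx14 were ranked by the root mean square difference of tissue-centered log2 CPM among 16146 genes with a mean of at least 1 CPM in each tissue. The closest were Gm29529 (0.34), Cep72 (0.39), which encodes a centrosomal protein, D430036J16Rik (0.39), Rgs8 (0.42) and Htr1b (0.42), a serotonin receptor gene. Snx14 itself varied by 0.76 around its tissue means on this measure. Gm29529 was at 63.6 CPM in WT, 66.0 and 47.2 CPM in Het, and 23.6 and 22.2 CPM in KO cerebellum. Cep72 was at 22.3 CPM in WT, 21.3 and 20.6 CPM in Het, and 10.6 and 9.69 CPM in KO cerebellum. As the genes were chosen for likeness to Snx14 in these same libraries, their low KO values follow from that choice. In Gm29529 and Cep72 the WT and at least 1 Het cerebellum lay close together, unlike those of Snx14. Gm20537 was 17th in this order, Snx13 2706th, Snx19 3197th and Snx25 3228th.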

How the data were processed

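Counts were taken from 10 deposited tables, 1 per library, of raw read-pair counts per gene made by the authors, who aligned trimmed, strand-specific pairs to GRCm38 with STAR and counted exons with featureCounts (Subread 2.0.1). Strand was not used, multimapping reads were not counted, and pairs overlapping several genes counted for each, as the command in the file headers shows. The 26345 entries without a mouse gene identifier held 0.160% to 0.926% of a library and were left out. Libraries held 16088310 to 22975355 gene counts. Each library is a separate mouse or tissue, and replicates differed beyond counting noise (chi-square per degree of freedom 5.16 to 27.0 for the Het and KO pairs).

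Tests used edgeR 4.0.16 (R 4.3.3): glmQLFit and glmQLFTest, TMM factors, filterByExpr with a count minimum of 10, Benjamini-Hochberg adjustment over all genes tested. The fits were KO against control and a linear copy term within a tissue, the interaction over 10 libraries, and tissue in 6 control libraries. Copy number and interaction were called by adjusted p alone. All fits were also run on simulated counts with known changes. These libraries were drawn independently with the same dispersion for every gene, so that run does not cover the paired tissues or the spread of the real libraries. Alternatives were DESeq2 1.42.0, RLE factors, no filter, blocks and each library left out. Each mouse gave both tissues, per the labels, and deviations of a mouse's tissues correlated across genes (r 0.278 to 0.532), so the animal block is a paired fit. TPM used the tables' lengths. Likeness to Snx14 used a pseudocount of 0.5 CPM. Proteins were aligned globally (BLOSUM62). Genes named, besides the members, are those sharing exons with a member and the neighbors of Snx14. Named too are called genes of each list (at most 6, otherwise the 2 with the smallest p) and the 5 most like Snx14. Rgs9 was added as the largest cortical change of its list. For the tissue comparison only examples are given. Members and lists were chosen with earlier results of these data known.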

Additional observations from a re-analysis of the deposited data

How the results depend on the processing

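No alternative changed the call of any of the 3 paralogs, and the sign turned only for values near 0 when 1 library was left out. Without KO 2 these were Snx25 in KO cerebellum (0.068, range over libraries left out -0.13 to 0.068) and the cerebellar slopes of Snx19 (-0.020, range -0.020 to 0.070) and Snx25 (-0.021, range -0.021 to 0.079). The cortical slope of Snx13 became 0.0051 without Het 2 and 0.027 without KO 2 (range -0.096 to 0.027). Snx14 kept its direction in both KO comparisons and both slopes under every alternative run. With libraries left out singly, its log2 fold change ranged from -1.82 to -1.33 in cerebellum and from -1.46 to -1.16 in cortex, and its slope from 1.03 to 1.33 and from 0.82 to 1.16. The difference of its KO effect between tissues ranged from -0.51 to 0.048, the latter without the WT cerebellum. In cortex Snx14 was called by DESeq2 (-1.36, slope 0.89), with no filter on low counts (-1.36, slope 0.89) and without Het 2.

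Numbers of called genes moved more. With no filter on low counts they were 842 and 380 for KO in cerebellum and cortex, 599 for the difference between tissues and 895 and 33 for the slopes. DESeq2 gave 49 for KO in cortex, 219 for the difference and 234 and 2 for the slopes. Leaving out 1 library gave 133 to 400 and 0 to 98 for KO, 3 to 117 for the difference and 0 to 186 and 0 to 22 for the slopes. With the replicate block, 181 genes were called in cerebellum and 3 in cortex, and 128 for the difference (animal block). Numbers of KO and control mice name different animals, and only the WT mouse has number 3, so the block leaves the KO effect to KO against Het: Snx14 was then at -1.33 (adjusted p 0.00833) in cerebellum and -1.16 (adjusted p 0.157) in cortex. Same-numbered KO and Het libraries deviated together with r of 0.0525 to 0.229 across genes. The causes of these moves were not tested. Levels per length with principal transcripts were chosen after seeing the data. With 2 KO mice and 1 WT mouse, changes of a paralog smaller than its interval were not detectable.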
